A study of Mus musculus with 4 samples.

Results

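The genes described here are 10 named parts of the bone morphogenetic protein (BMP) and activin pathways: the ligand genes Bmp4 and Inhba, the receptor genes Bmpr1a and Bmpr2, the secreted inhibitor genes Grem1 and Fst, the inhibitory Smad gene Smad7 and the target genes Id1, Id2 and Id3. They were found in the table by symbol. Of the 10, 9 have a row among the 16051 genes of the table, and 8 reached a mean of 1 FPKM (fragments scaled to transcript length and to the number of mapped reads) over the libraries and were tested together with all others above that limit, 10243 genes in all. The expression of Bmp4 was not analysed here, and Grem1 fell below the limit.

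The 3T3-L1 cells, named as differentiated by the study and belonging to a fibroblast line from mouse embryos that can be turned into adipocytes in culture, were exposed for 48 h to 100 µM risperidone, an antipsychotic drug, or to its vehicle DMSO. To ask which transcripts risperidone alters, mRNA was sequenced from 2 libraries per treatment. The RNA of 3 cultures went into each library as a pool, so every p-value measures only the spread between pooled libraries, and all libraries come from a single cell line. In the labels the controls are untreated and retina is mentioned, whereas the methods of the study name DMSO and no retina; the methods were followed.

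BMPs and activins are secreted dimers of the TGF-β family. They bind pairs of type I and type II receptor kinases at the cell surface. BMP receptors phosphorylate Smad1, Smad5 and Smad9, activin receptors phosphorylate Smad2 and Smad3, and both groups enter the nucleus with Smad4. The Id genes are textbook targets of BMP signalling, and their products, helix-loop-helix proteins without a DNA-binding region, hold E proteins away from DNA. In fat tissue BMP4 is known for committing progenitor cells to the adipocyte lineage, and activin A, the homodimer of the Inhba product, for holding them in the undifferentiated state.

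The libraries held between 15883712 and 16374119 counts, and 6590 of the 10243 genes tested passed an adjusted p of 0.05, 3303 of them lower and 3287 higher with risperidone. Risperidone replicate 2 stood apart. Markers of kidney cells, 14 in number and all with a row, summed to 195 FPKM in it against 2.54 and 1.78 FPKM with DMSO and 2.75 FPKM in risperidone replicate 1, and all 14 had at least 1 count. Of the adipocyte markers, Adipoq, Cidec, Lep, Retn, Cfd and Cebpa had at most 5 counts in any library, and Plin1 had 9 and 14 counts with DMSO and 1 in each risperidone library. The low levels of these markers go against the name of differentiated adipocytes, although the study reported lipid staining of differentiated cells. The other 4 of the 11 listed markers reached a mean of 1 FPKM. Fabp4, a fatty acid carrier, stood at 130 and 169 FPKM with DMSO and 59.5 and 71.2 FPKM with risperidone, and Lpl, a lipase, at 234 and 250 against 192 and 191 FPKM. Pparg, the receptor that drives adipogenesis, stood at 12.5 and 11.4 against 12.8 and 12.5 FPKM and Cd36, a fatty acid transporter, at 1.21 and 1.14 against 1.04 and 1.66 FPKM, and neither passed the test. The 11 adipocyte markers, mostly Fabp4 and Lpl, summed to 378 and 432 FPKM against 266 and 277 FPKM. The 7 markers of preadipocytes or fibroblasts with a row summed to 566 and 562 FPKM with DMSO and 930.5 and 899.9 FPKM with risperidone, most of it Col1a1, a collagen, at 380 and 368 against 715 and 674 FPKM. Within this list Dlk1, a protein that restrains adipogenesis, went from 30.4 and 32.9 to 81.7 and 83.3 FPKM, the collagen gene Col3a1 went the other way, from 105 and 109 to 49.3 and 53.8 FPKM, and Pdgfra stood at 13.5 and 13.3 against 12.0 and 12.6 FPKM. The part of these marker levels in the results below was not tested. In bulk RNA, fewer cells of a type and less RNA per cell cannot be told apart.

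The stretches of DNA before the start sites of 3 of the genes are shown because these genes passed the test and part of their window lies outside annotated exons, which was not so for Bmpr2 and Id3. They are the parts of the 250 bases before the RefSeq start (GRCm38.p6) that lie outside every GENCODE exon, 5′ to 3′ on the gene's strand, with GGCGCC, the GC-rich motif known for Smad1 and Smad5, in capitals. The Id2 stretch is chr12:25096254-25096342 on the minus strand, the Bmpr1a stretch chr14:34502688-34502796 on the minus strand, and the Inhba stretch chr13:16011601-16011850 on the plus strand. The Bmpr1a and Inhba start sites used lie inside the annotated spans of their genes, so other start sites exist.
Id2: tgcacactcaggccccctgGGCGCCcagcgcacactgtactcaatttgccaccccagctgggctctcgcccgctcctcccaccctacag
Bmpr1a: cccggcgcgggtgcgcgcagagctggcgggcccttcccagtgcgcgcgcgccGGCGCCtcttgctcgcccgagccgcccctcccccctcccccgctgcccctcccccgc
Inhba: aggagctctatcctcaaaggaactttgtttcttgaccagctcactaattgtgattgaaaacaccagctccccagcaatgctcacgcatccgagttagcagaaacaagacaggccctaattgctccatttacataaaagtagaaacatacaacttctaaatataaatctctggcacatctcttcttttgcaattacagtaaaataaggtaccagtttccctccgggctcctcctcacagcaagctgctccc

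The GGCGCC of Id2 lies 231 to 226 bases before its start, and that of Bmpr1a 198 to 193 bases before. The Bmpr2 and Grem1 windows also hold it, at 105 to 100 and 78 to 73 bases before the start, and the Id3, Inhba and Bmp4 windows do not. Among all 32851 windows of the same 300 bases, 11.9% held GGCGCC. The same letters followed after 5 bases by GTCT were in 0.0731% of all windows, and the palindrome GTCTAGAC in 0.213%. Both were searched on both strands and neither was in a window of these genes. Windows were read for 7 of the 10 genes, and those of Id1, Fst and Smad7 were not. The windows with GGCGCC were 79.3% (Bmpr1a), 70.7% (Grem1), 63.3% (Id2) and 59.3% (Bmpr2) G or C. Those without it were 64.0% (Bmp4), 60.0% (Id3) and 47.7% (Inhba), against a median of 52.7% over all windows. The motif is made of G and C only, and its share among windows of like G and C content was not computed.

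Risperidone changed 6 of the 8 tested genes, with Id1 and Bmpr1a lower and Id2, Id3, Inhba and Bmpr2 higher, while Fst and Smad7 did not pass the test (edgeR's quasi-likelihood test, Benjamini-Hochberg adjusted p under 0.05). That is 75% of the 8, against 64.3% of all tested genes, 32.2% lower and 32.1% higher, so the count of genes called was near the background. The sizes are given as a description, since the genes were chosen with earlier results of these data known. The median absolute log2 fold change of the 8 was 0.64 against 0.30 over all tested genes, and 3 of the 8 (Id1, Id2 and Inhba) also changed by at least 1 on the log2 scale, against 6.52% of all tested genes. FPKM ranges of the treatments did not overlap for 7 of the 8, all but Bmpr2, against 82.2% of all tested genes. Without risperidone replicate 2, 3 of the 8 were called lower and 3 higher, since Smad7 passed the test and Bmpr2 no longer did. With library size as the only scaling, 3 were lower and 3 higher, and likewise on the TPM scale, where Fst passed the test and Bmpr2 did not.

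**Figure D1:**
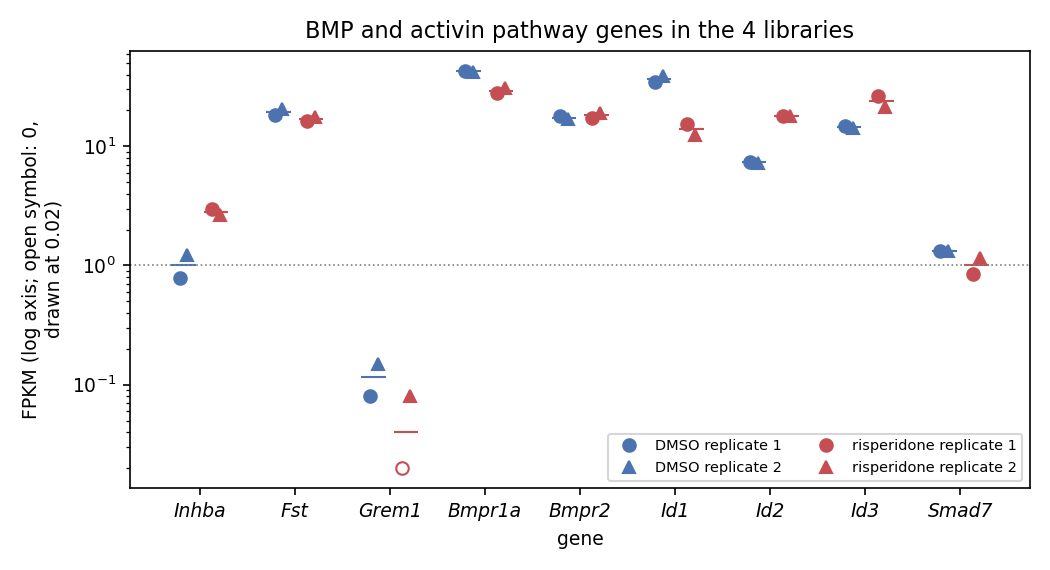
FPKM on a log axis of the 9 genes with a row, with DMSO in blue, risperidone in red, circles for replicate 1, triangles for replicate 2, bars for the mean of 2 libraries and a dotted line at the limit of 1 FPKM. Inhba, Id2 and Id3 sit higher with risperidone, Id1 and Bmpr1a lower, and the Bmpr2 values of the treatments overlap.

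Inhba (Gene ID 16323, chr13:16004256-16031609), which encodes the subunit of activin A, rose with risperidone from a low level. Its FPKM was 0.79 and 1.22 with DMSO and 2.99 and 2.63 with risperidone, from 26 and 33 counts against 93 and 80. Both risperidone libraries lay above both DMSO libraries, and the fold change was 3.12. On the log2 scale the change was 1.64 ± 0.228 (SE, n = 2 libraries per treatment), with a 95% interval from 1.14 to 2.14 (edgeR's quasi-likelihood test, adjusted p = 9.03e-05). The change was 1.74 without risperidone replicate 2. It was 0.93 with limma on log2(FPKM + 1), a scale that understates changes of low genes. Reads from 2 antisense genes that overlap Inhba, B230303A05Rik and Gm48444, cannot be told apart from its own if the counting ignored strand, which the sources used here do not state.

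Other activin-class ligands and inhibin subunits in the table were few. Gdf11, a ligand of the activin receptors, stood at 3.57 and 3.71 FPKM with DMSO and 1.94 and 1.93 FPKM with risperidone, a log2 fold change of -0.81 ± 0.184 (SE; edgeR's quasi-likelihood test, adjusted p = 0.00256). Inha, whose product joins the activin subunits to form inhibins, which counter activin, stood at 10.45 and 10.01 FPKM with DMSO and 7.62 and 8.84 FPKM with risperidone and missed the threshold (log2 fold change -0.22, edgeR's quasi-likelihood test, adjusted p = 0.153). Without risperidone replicate 2 it passed, at -0.33 (edgeR's quasi-likelihood test, adjusted p = 0.0474), as it did with limma on log2(FPKM + 0.1), log2(FPKM + 1) and log2(TPM + 1), at -0.31, -0.29 and -0.44, the last on a scale where the median of all genes was -0.22. Without risperidone replicate 1 it was -0.12 (edgeR's quasi-likelihood test, adjusted p = 0.428). Of the 4 such genes with a row besides Inhba, 2 were tested, and 1 of these passed the test, where 64.3% of all tested genes passed.

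Of the listed BMP and GDF ligands, which leave out Gdf11, none reached the limit of 1 FPKM, and none passed the test with no filter applied. Besides Bmp4, 16 were listed, 9 had a row, and each of the 9 had at most 11 counts in any library. Gdf9, with the highest mean FPKM, had 1, 1, 3 and 1 counts. Bmp6 had 10 counts and Bmp7 11 counts, all of them in risperidone replicate 2, the library with the kidney markers, and both were at 0 in the other 3 libraries. Bmp2 likewise had its 2 counts in that library alone. A count of 0 at this depth allows up to 3 counts, or 0.183 to 0.189 CPM (counts scaled to the library total), so lower levels were not detectable.

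Fst (Gene ID 14313, chr13:114452262-114458989), which encodes follistatin, a secreted protein that binds activin, did not pass the test. Its FPKM was 18.2 and 20.6 with DMSO and 16.4 and 17.7 with risperidone, from 740 and 811 counts against 656 and 702. The ranges did not overlap, yet the log2 fold change of -0.10 ± 0.0734 (SE) had a 95% interval from -0.26 to 0.06 (edgeR's quasi-likelihood test, adjusted p = 0.261). Fst is overlapped by the antisense gene Gm47040.

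Set against its inhibitor in the same library, Inhba gained. Fst stood at 23.1 and 16.9 times the FPKM of Inhba with DMSO and at 5.48 and 6.71 times with risperidone, and the ranges did not overlap. The log2 ratio of Inhba to Fst was higher by 1.70 with risperidone, and by 1.85 without risperidone replicate 2. An exact permutation test (two-sided) of this ratio gave p = 0.333, the smallest value that 2 against 2 libraries allow. Fst remained the higher of the pair per length in all 4 libraries.

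Grem1 (Gene ID 23892, chr2:113748675-113758648), which encodes gremlin 1, a secreted inhibitor of BMPs, was at the edge of detection. It had 2 and 4 counts with DMSO and 0 and 2 with risperidone, or 0.08 and 0.15 against 0 and 0.08 FPKM. The summed counts were 6 with DMSO, with an exact Poisson 95% interval from 2.20 to 13.1, and 2 with risperidone, with an interval from 0.242 to 7.22. The intervals, which cover counting error only, overlap, and a difference was not detectable at this depth.

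Among the other secreted and membrane inhibitors, 5 of 19 listed genes were tested and all 5 passed the test, 2 lower and 3 higher, where 64.3% of all tested genes passed. Htra1, a secreted serine protease that restrains TGF-β family signals, rose from 0.67 and 0.40 FPKM to 1.90 and 1.64 FPKM (log2 fold change 1.81 ± 0.302, edgeR's quasi-likelihood test, adjusted p = 0.000334). Its DMSO mean was 0.535 FPKM, so it reached the limit of 1 FPKM only through the risperidone libraries, and it had to differ to be among the 5. Crim1, a membrane protein that binds BMPs, rose from 3.36 and 3.44 FPKM to 8.60 and 8.86 FPKM (log2 fold change 1.35 ± 0.0624, edgeR's quasi-likelihood test, adjusted p = 4.48e-08). Dand5, an antagonist of Nodal and BMPs, rose by 0.62 on the log2 scale, from 4.09 and 3.91 FPKM to 6.65 and 4.85 FPKM, a change that missed the threshold at 0.37 without risperidone replicate 1 (edgeR's quasi-likelihood test, adjusted p = 0.0116 with and 0.091 without that library). The most abundant of these genes, Fstl1, a follistatin-like glycoprotein, fell by 0.18 on the log2 scale, from 110 and 104 FPKM to 84.0 and 92.1 FPKM, and Twsg1, which binds BMPs and chordin, fell by 0.44, from 75.3 and 72.7 FPKM to 49.98 and 52.12 FPKM. The Fstl1 call was lost without DMSO replicate 1, at -0.14 (edgeR's quasi-likelihood test, adjusted p = 0.116), and with offsets for gene length, at -0.10, or for length and GC content, at -0.0880. Twsg1 was named after its values were seen.

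The pathway genes below the limit of 1 FPKM, 36 in all with Grem1 among them, were also tested with no filter applied, where 37.6% of the 16021 genes then tested passed. Those named here passed and were chosen after their values were seen. Chrdl1, a chordin-like inhibitor that binds BMPs, was lower, going from 42 and 43 counts to 15 and 16. Bmper, another secreted BMP-binding protein, was lower as well, going from 85 and 80 counts to 30 and 33. Higher were Pmepa1, a membrane protein that holds Smads from the receptor, which went from 33 and 31 counts to 97 and 88, and Gata3, a transcription factor, which went from 31 and 32 counts to 49 and 48. For each of these genes, both libraries of one treatment lay above both of the other.

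Bmpr1a (Gene ID 12166, chr14:34411061-34503336), the type I receptor for BMPs, had the highest level of the 9 genes in every library and fell with risperidone. Its FPKM was 43.2 and 42.3 with DMSO and 27.9 and 30.7 with risperidone, from 3763 and 3582 counts against 2419 and 2614. Both risperidone libraries lay below both DMSO libraries. The log2 fold change was -0.45 ± 0.0519 (SE, n = 2 libraries per treatment), a fold of 0.732, with a 95% interval from -0.57 to -0.34 (edgeR's quasi-likelihood test, adjusted p = 2.26e-05). It passed the test in all 15 alternative fits, between -0.68 and -0.32, and was -0.51 without risperidone replicate 2. The antisense gene Gm17110 overlaps it.

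Bmpr2 (Gene ID 12168, chr1:59764279-59878081), the type II receptor that BMPs share, had the smallest change of the 6 genes called. Its FPKM was 17.9 and 16.9 with DMSO and 17.3 and 19.0 with risperidone, from 3125 and 2859 counts against 2984 and 3248. The treatments overlapped, with the highest value in risperidone replicate 2. The log2 fold change was 0.15 ± 0.0562 (SE), with a 95% interval from 0.03 to 0.28 (edgeR's quasi-likelihood test, adjusted p = 0.033). The call was lost without risperidone replicate 2 (0.0859, adjusted p = 0.172) and without DMSO replicate 2 (0.11, adjusted p = 0.247), and on the TPM scale the sign turned, to -0.0803, above the median of all genes, -0.22, on that scale. The gene Gm38125 overlaps Bmpr2 on the same strand, so reads of the overlap cannot be told apart. Within a library, Bmpr1a stood at 2.42 and 2.51 times the FPKM of Bmpr2 with DMSO and at 1.61 times in both risperidone libraries, and these ranges did not overlap (exact permutation test, two-sided, p = 0.333, the smallest possible).

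Of the 8 other receptors and coreceptors tested, of 16 listed, 4 were lower, 1 was higher and 3 did not pass the test, so that 62.5% were called, near the 64.3% of all tested genes. The BMP coreceptors Rgmb and Rgma fell as Bmpr1a did, Rgmb from 19.5 and 20.3 FPKM to 13.1 and 13.3 FPKM and Rgma from 12.0 and 11.7 FPKM to 8.15 and 8.14 FPKM. Their log2 fold changes were -0.47 and -0.45 (edgeR's quasi-likelihood test, adjusted p = 6.24e-05 and 6.48e-05). The activin receptors and Acvr1 were named after their values were seen. Acvr1b, of type I, went from 12.0 and 10.9 FPKM to 8.37 and 8.07 FPKM, and Acvr2a, of type II, from 13.4 and 13.4 FPKM to 9.94 and 9.95 FPKM, with log2 fold changes of -0.38 and -0.35 (edgeR's quasi-likelihood test, adjusted p = 0.000612 and 0.000438). Acvr2b, the other type II activin receptor, stood at 1.60 and 1.63 against 1.33 and 1.28 FPKM and did not pass (log2 fold change -0.19, edgeR's quasi-likelihood test, adjusted p = 0.15). Acvr1, another type I receptor, stood at 16.2 and 17.2 against 17.3 and 16.5 FPKM, values that overlap. It did not pass either (log2 fold change 0.12, edgeR's quasi-likelihood test, adjusted p = 0.118). Neo1, a membrane protein that binds the Rgm coreceptors, went the other way, from 35.3 and 34.5 FPKM to 44.1 and 43.8 FPKM (log2 fold change 0.43, edgeR's quasi-likelihood test, adjusted p = 1.34e-05).

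Of 6 listed proteases that process the ligands or their inhibitors, 2 were tested. Both passed the test, where 64.3% of all tested genes passed, and they moved in opposite directions. Furin, which cleaves BMP and activin precursors, went from 63.5 and 66.1 FPKM to 45.3 and 46.0 FPKM, a log2 fold change of -0.41 (edgeR's quasi-likelihood test, adjusted p = 2.02e-05). Bmp1, which despite its name is a metalloprotease that cleaves chordin, went from 67.9 and 69.1 FPKM to 74.5 and 74.1 FPKM, a log2 fold change of 0.22 that missed the threshold with limma on log2(FPKM + 0.1), at 0.12, and was -0.0264 on the TPM scale, there too above the median of all genes (edgeR's quasi-likelihood test, adjusted p = 0.00154).

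Smad7 (Gene ID 17131), the inhibitory Smad that blocks type I receptors of both branches, was low and did not pass the test. Its FPKM was 1.33 in both DMSO libraries and 0.85 and 1.15 with risperidone, from 88 and 77 counts against 50 and 67. The ranges did not overlap, but the log2 fold change of -0.40 ± 0.210 (SE) had a 95% interval from -0.86 to 0.06 (edgeR's quasi-likelihood test, adjusted p = 0.116). Leaving out risperidone replicate 2 gave -0.63 (adjusted p = 0.0234), and leaving out risperidone replicate 1 gave -0.20 (adjusted p = 0.444).

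The other 7 Smad genes were all tested, and 1 was lower, 4 were higher and 2 did not pass the test, so that 71.4% were called, against 64.3% of all tested genes. Smad6, the inhibitory Smad of the BMP branch, rose from 4.36 and 4.60 FPKM to 6.60 and 5.39 FPKM (log2 fold change 0.52, edgeR's quasi-likelihood test, adjusted p = 0.00395), a call that was lost on the TPM scale, at 0.25. Smad3, of the activin branch, rose from 15.2 and 16.2 FPKM to 22.2 and 22.4 FPKM (log2 fold change 0.60, edgeR's quasi-likelihood test, adjusted p = 4.47e-06). Smad9, of the BMP branch, rose from 4.22 and 4.27 FPKM to 5.96 and 6.17 FPKM (log2 fold change 0.62, edgeR's quasi-likelihood test, adjusted p = 1.04e-05). Smad4, the partner of both branches, had a log2 fold change of 0.26 that missed the threshold with limma on log2(FPKM + 1), at 0.11, and was -0.0325 on the TPM scale, above its median of all genes. Smad5, the gene that was lower, went from 12.2 and 11.6 FPKM to 8.50 and 9.10 FPKM. The summed FPKM of Smad2 and Smad3 was 21.53 and 21.97 with DMSO and 28.4 in both risperidone libraries. That of Smad1, Smad5 and Smad9 was 23.3 and 23.1 with DMSO and 22.1 in both. In TPM, a scale where the median log2 change of all genes was -0.22, this sum was 48.35 and 47.34 against 40.52 and 42.01. The TPM sum of Smad2 and Smad3 was 44.6 and 45.1 against 52.0 and 54.0.

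Of 18 listed Smad regulators 17 were tested, with 4 lower, 8 higher and 5 not past the test, so that 70.6% were called, against 64.3% of all tested genes. Tob1, an antiproliferative protein that restrains BMP Smads, fell by 0.90 on the log2 scale, from 28.6 and 30.6 FPKM to 14.9 and 14.8 FPKM (edgeR's quasi-likelihood test, adjusted p = 7.54e-07). Nedd4l, a ubiquitin ligase that acts on activated Smad2 and Smad3, rose by 0.82, from 3.20 and 2.91 FPKM to 5.13 and 5.03 FPKM (edgeR's quasi-likelihood test, adjusted p = 1.7e-06). Skil, a corepressor of Smads, rose by 0.38 (edgeR's quasi-likelihood test, adjusted p = 0.000234), a call that was lost on the TPM scale, at 0.13. Fkbp1a, which holds type I receptors inactive, had a log2 fold change of 0.21 that missed the threshold with limma on log2(FPKM + 1), at 0.11, and was -0.0312 on the TPM scale, above its median of all genes.

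**Figure D2:**
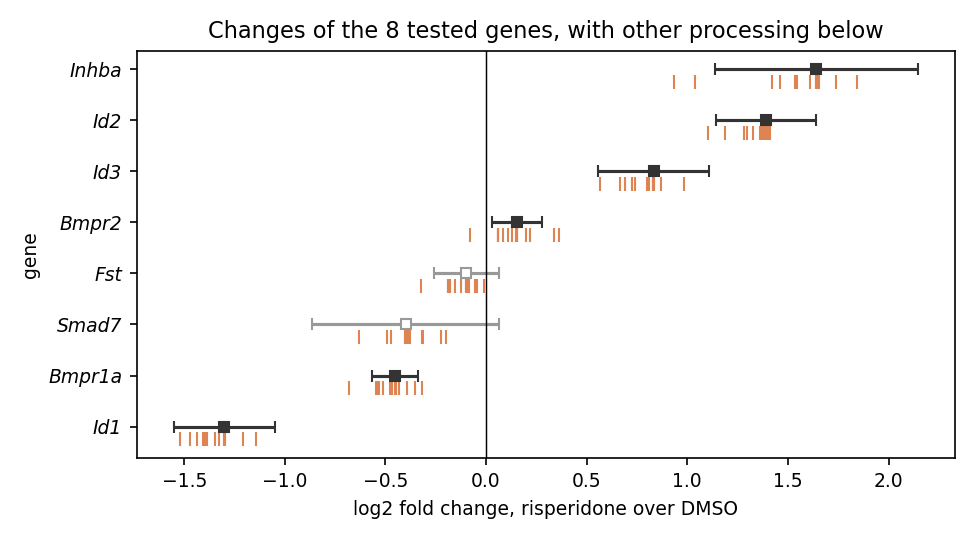
Log2 fold change of the 8 tested genes, risperidone over DMSO, as squares (filled where the adjusted p was under 0.05) with bars for the 95% interval, and below each a tick for the value under every alternative. The ticks of Id1 and Bmpr1a stay below 0 and those of Inhba, Id2 and Id3 above it, whereas those of Bmpr2 lie on both sides, from -0.0803 to 0.36.

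The 3 Id genes changed in both directions. Id1 (Gene ID 15901, chr2:152736251-152737410) had 34.5 and 39.2 FPKM with DMSO and 15.5 and 12.4 FPKM with risperidone, from 452 and 499 counts against 202 and 160. Both DMSO libraries lay above both risperidone libraries. Id1 fell 2.46-fold, with a log2 fold change of -1.30 ± 0.114 (SE, n = 2 libraries per treatment) and a 95% interval from -1.55 to -1.05 (edgeR's quasi-likelihood test, adjusted p = 3.01e-06).

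Id2 (Gene ID 15902, chr12:25093799-25096092) had 7.41 and 7.24 FPKM with DMSO and 18.0 and 17.9 FPKM with risperidone, from 138 and 131 counts against 334 and 328. The libraries of a treatment were close to each other and far from those of the other. Id2 rose 2.63-fold, with a log2 fold change of 1.39 ± 0.113 (SE, n = 2 libraries per treatment) and a 95% interval from 1.14 to 1.64 (edgeR's quasi-likelihood test, adjusted p = 1.69e-06).

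Id3 (Gene ID 15903, chr4:136143822-136145392) had 14.8 and 14.1 FPKM with DMSO and 26.6 and 21.5 FPKM with risperidone. Both risperidone libraries lay above both DMSO libraries, with replicate 2 the lower of the pair. Its estimated counts, 197.56 and 183.91 against 354.84 and 283.25, are not whole, so some of its reads were shared with other loci and its level is less certain than those of Id1 and Id2. Id3 rose 1.78-fold, with a log2 fold change of 0.83 ± 0.125 (SE, n = 2 libraries per treatment) and a 95% interval from 0.56 to 1.11 (edgeR's quasi-likelihood test, adjusted p = 0.000159).

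All 3 calls held in the 15 alternative fits. Id1 lay between -1.52 and -1.15, Id2 between 1.10 and 1.41 and Id3 between 0.57 and 0.98. Without risperidone replicate 2 the log2 fold changes were -1.15 for Id1, 1.40 for Id2 and 0.98 for Id3.

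The summed FPKM of the Id genes overlapped between the treatments, while the share of each gene in it did not. The sum of Id1, Id2 and Id3 was 56.7 and 60.5 FPKM with DMSO and 60.1 and 51.7 FPKM with risperidone (exact permutation test, two-sided, p = 0.667), and the ranges overlapped. On the TPM scale the sum was 117 and 124 against 110 and 98.4, and the ranges did not overlap. Id1 made up 60.9% and 64.7% of the FPKM sum with DMSO and 25.8% and 23.9% with risperidone. Id2 went from 13.1% and 12.0% to 29.99% and 34.65%, and Id3 from 26.0% and 23.3% to 44.3% and 41.5%. None of the 3 shares overlapped between treatments, with p = 0.333 for each in an exact permutation test (two-sided), the smallest possible with 2 against 2 libraries. A share within a library does not depend on the scaling between libraries. Id4, the remaining member of the family, had 0 and 2 counts with DMSO and 3 and 9 with risperidone.

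**Figure D3:**
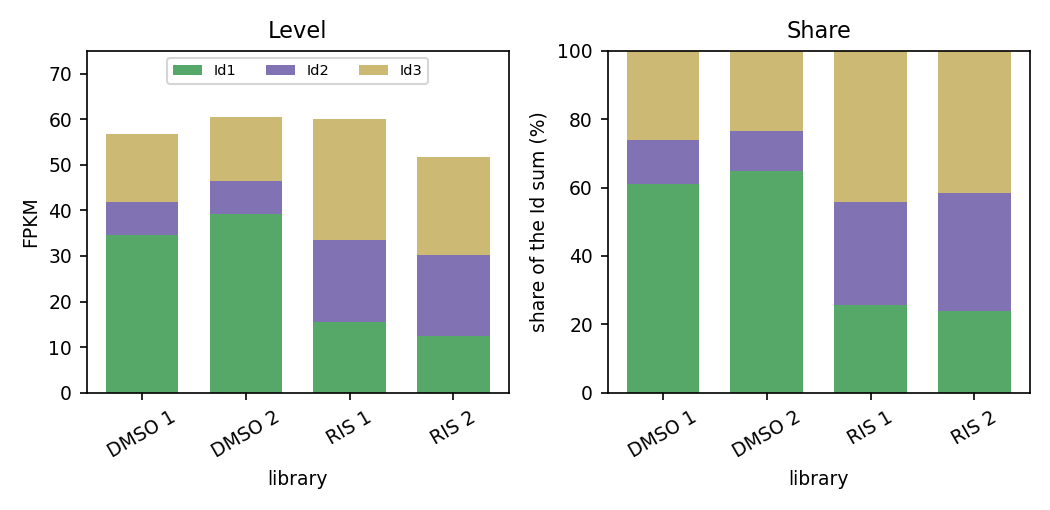
FPKM of Id1, Id2 and Id3 in each library, stacked (left), and the share of each in their sum in percent (right), with RIS for risperidone. Id1 took 60.9% and 64.7% of the sum in the DMSO libraries and 25.8% and 23.9% in the risperidone libraries, while the height of the stack stayed between 51.7 and 60.5 FPKM.

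Of the 3 E proteins that Id proteins bind, 1 passed the test, where 64.3% of all tested genes passed. Tcf4 fell by 0.49 on the log2 scale, from 20.2 and 18.6 FPKM to 14.1 and 13.7 FPKM (edgeR's quasi-likelihood test, adjusted p = 2.41e-05). Tcf12 stood at 23.7 and 23.6 FPKM with DMSO and 19.6 and 21.9 FPKM with risperidone (log2 fold change -0.09, edgeR's quasi-likelihood test, adjusted p = 0.177). It passed the threshold without risperidone replicate 2, at -0.17, with library size as the only scaling, at -0.19, and with limma on the FPKM and TPM scales, between -0.32 and -0.18. Without risperidone replicate 1 it was -0.0215, and with offsets for gene length -0.00311. Tcf3 stood at 18.2 and 17.4 against 18.5 and 17.3 FPKM. Their summed level was 62.0 and 59.5 FPKM with DMSO and 52.2 and 52.9 FPKM with risperidone, and the ratio of the Id sum to it was 0.914 and 1.02 against 1.15 and 0.978, values that overlap (exact permutation test, two-sided, p = 0.667). In counts, which are not per length, the ratio was 0.183 and 0.199 against 0.259 and 0.222, and these values did not overlap (exact permutation test, two-sided, p = 0.333).

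Beyond the Id genes, 6 other targets of BMP signalling were tested of 13 listed, and 4 were higher while Msx1 and Tbx3 did not pass the test (log2 fold changes -0.0889 and -0.38). Among all tested genes 64.3% were called, 32.1% higher and 32.2% lower, against 66.7% of these 6. Runx2, a transcription factor of bone formation, rose from 2.65 and 2.57 FPKM to 4.33 and 4.49 FPKM (log2 fold change 0.95, edgeR's quasi-likelihood test, adjusted p = 9.47e-06). Atoh8, Dlx2 and Hes1, named after their values were seen, encode transcription factors. They stood at 15.3 and 13.9, 2.59 and 2.39, and 4.04 and 3.68 FPKM with DMSO, and at 24.9 and 20.97, 3.76 and 3.87, and 6.39 and 5.04 FPKM with risperidone. The 4 osteoblast or chondrocyte markers with a row summed to 3.44 and 2.93 FPKM with DMSO and 5.79 and 7.39 FPKM with risperidone, most of it Sox9. Alpl was at 2.32 FPKM in risperidone replicate 2 and at most 0.22 FPKM in the others. The part of these cells in the result was not tested.

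With the Id genes included, 9 targets were tested, of which 1 (Id1) was lower, 6 were higher and 2 did not pass, where 32.2% of all tested genes were lower and 32.1% higher. Over all 105 listed pathway genes besides the 10, 85 had a row and 50 were tested, of which 14 were lower, 21 higher and 15 did not pass the test. The share called, 70%, again lay near the 64.3% of all tested genes, and 2 of the 50, Htra1 and Crim1, changed by at least 1 on the log2 scale. Htra1 is counted here although it reached the limit of 1 FPKM only through the risperidone libraries, so it had to differ. With library size as the only scaling the split was 19 lower and 19 higher, with limma on log2(FPKM + 1) 17 and 17, and on the TPM scale 20 and 11.

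**Figure D4:**
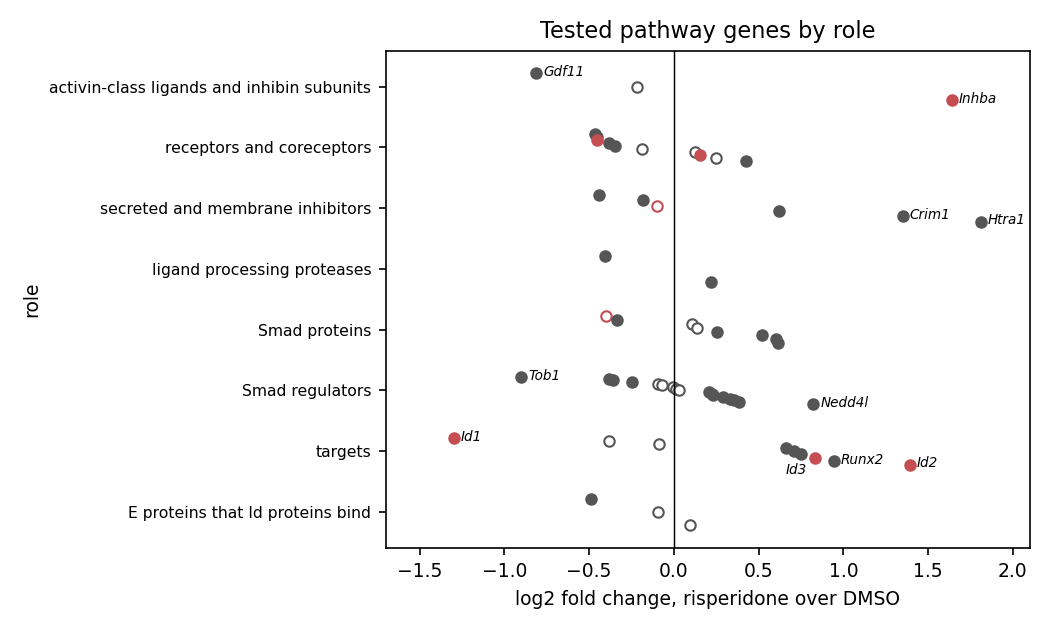
Log2 fold change, risperidone over DMSO, of the 58 tested pathway genes by role, with 8 of the 10 genes in red, the others in grey, and filled points for an adjusted p under 0.05 (names given where the change is over 0.75 in size). Id1 at -1.30 is the only filled target below 0, and Inhba, Htra1, Crim1 and Id2 lie above 1. Htra1 reached the limit of 1 FPKM only through its risperidone values.

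The order of the 9 genes by FPKM changed with the treatment. With DMSO it ran Bmpr1a, Id1, Fst, Bmpr2, Id3, Id2, Smad7, Inhba and Grem1, and no neighbours in this order overlapped between libraries. With risperidone it ran Bmpr1a, Id3, Bmpr2, Id2, Fst, Id1, Inhba, Smad7 and Grem1, where Bmpr2 overlapped with Id2 and with Fst. Id1 fell from the 2nd to the 6th place, with a mean of 36.9 ± 3.30 FPKM (SD, n = 2) under DMSO and 13.9 ± 2.21 under risperidone. Id3 moved up from the 5th to the 2nd place, with 14.4 ± 0.445 against 24.0 ± 3.63 FPKM. Inhba passed Smad7, with 1.01 ± 0.304 against 2.81 ± 0.255 FPKM.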

How the data were processed

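mRNA of 4 libraries (2 per treatment) was sequenced on MGISEQ-2000, and the authors deposited estimated read counts, FPKM and TPM for 16051 genes. Their processing notes name Bowtie2, RSEM, DESeq2 and GRCm38.p6, with no roles or versions, and whether counting used strand is not given in the sources used here. Average columns of each treatment were not used. The estimated counts, as deposited, were rounded. The test, for genes whose mean reached 1 FPKM, was that of edgeR 4.0.16 in R 4.3.3 (TMM, quasi-likelihood F-test, two-sided, Benjamini-Hochberg over 10243 genes, threshold 0.05). The SE is the size of the log2 fold change over the root of the F statistic. Values, ratios and orders used FPKM, as deposited by the authors, which is per length. The TPM values deposited by the authors served as an alternative. Depth was 15883712 to 16374119 counts, and a count of 0 allows 3 counts.

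The members and gene lists were chosen with earlier results of these data known. Named were all members and, per role, up to 3 genes with the largest change past the threshold without overlap and the gene with the highest mean FPKM. Marker lists of retina (summed FPKM 0.80 to 1.23 over the libraries), macrophages (2.87 and 4.10 with DMSO, 6.71 and 7.10 with risperidone) and endothelium (0.13 to 0.54) were summed along with those of adipocytes, preadipocytes or fibroblasts, osteoblasts or chondrocytes and kidney. Alternatives were DESeq2 1.42.0, limma 3.58.1, other filters, scalings and units, and each library left out. Promoter windows are from RefSeq (GRCm38.p6), with exons from GENCODE M21. On simulated data with 200 changed genes of 10243, edgeR recovered 93.5% with 11 false calls. In the deposited data 6590 of the 10243 genes were called, and recovery and false calls at such a number were not tested. The ratio of Bmp4 to Grem1 and the identity between Id proteins were planned and are not analysed here.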

Additional observations from a re-analysis of the deposited data

How the results depend on the processing

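Id1, Id2, Id3, Inhba and Bmpr1a kept their direction and an adjusted p under 0.05 in every alternative fit that tested them, though Inhba was not tested with a limit of 5 FPKM, and Id3 and Bmpr1a fell short of a size of 1 on the log2 scale. Bmpr2 did not. Its log2 fold change was 0.16 with DESeq2 (adjusted p = 0.0598), 0.13 with a limit of 5 FPKM, 0.15 with no filter, 0.0602 with library size as the only scaling, 0.0603 with limma on log2(FPKM + 0.1), 0.0575 on log2(FPKM + 1), and -0.0803 on log2(TPM + 1), and none of these passed the threshold. With 1 library left out it ranged from 0.0859 to 0.22. Fst passed the threshold with library size only (-0.19) and on log2(TPM + 1) (-0.32), and ranged from -0.18 to -0.0108 with 1 library left out, when it did not pass. Smad7 ranged from -0.63 to -0.20 with 1 library left out. Bmp1, Smad4 and Fkbp1a turned to -0.0264, -0.0325 and -0.0312 on log2(TPM + 1), all above the median of all genes on that scale, and Tcf12 to 0.0209 with length and GC offsets. The cause was not tested.

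With a limit of 5 FPKM, 2 of the 10 genes were called higher, as Inhba was then not tested and Bmpr2 not called. With a size of at least 1 on the log2 scale, 1 was lower and 2 higher, against 401 and 267 of all genes. On log2(TPM + 1), where the median of all genes was -0.22, 11 other pathway genes were higher, and 5292 of all genes were lower and 1536 higher. The split of all genes was 4092 and 2500 with library size only, and 3975 and 2420 on log2(FPKM + 1). A replicate block left 2 of the 10 genes lower and 4 higher, with 3321 and 3292 of all genes, and changed no call among them. The deviations of same-numbered libraries correlated at -0.10, so the numbers were not taken to pair the libraries. A crossed replicate block gave 2 and 4 of the 10 genes, and 3519 and 3474 of all genes. The crossed block, the GC offsets and the Id shares were chosen after seeing the data.

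With 2 pooled libraries per treatment, the smallest p of an exact permutation test is 0.333. The BMP ligands with a row and Grem1 had few counts, and none of them passed the test with no filter applied.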
